A study of Mus musculus with 9 samples.

Results

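The T cell receptor complex and lineage genes are 10 genes chosen by name: Cd3d, Cd3e, Cd3g, Cd4, Cd8a, Cd8b1, Trac, Trbc2, Cd2 and Lck. They are 10 of the 55450 genes counted in bulk RNA sequencing of mouse nigral tissue, and all 10 passed the filter on low counts that left 20892 genes for testing. The genes were listed by name and role, with earlier results of these data known, and no threshold on a measured value chose them. T cells recognise a peptide held by an MHC molecule through the variable chains of the receptor, which end in constant regions encoded by genes such as Trac (α chain) and Trbc2 (β chain). The variable chains signal through the CD3 chains, here Cd3d, Cd3e and Cd3g. The co-receptors CD4 and CD8 bind MHC class II and class I, respectively, and bring the kinase Lck to the receptor, while CD2 is an adhesion and co-stimulatory receptor. The healthy brain parenchyma holds few T cells, and most of those in the central nervous system lie in the meninges, the choroid plexus and the vessels.

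Each of the 3 groups had 3 libraries, A, B and C. CTR were CX3CR1-CreERT2 mice, whose tamoxifen-dependent Cre is driven in microglia and other myeloid cells, with a Cre-dependent lentiviral vector for GFP, described in the study's text as destabilized GFP. CX3 were mice of the same line with a Cre-dependent lentiviral vector for a mutant human α-synuclein, and DAT were DAT-Cre mice, whose Cre is driven in dopaminergic neurons, with that same vector. Vectors were injected into the substantia nigra on both sides at an age given as 8 weeks in one place and 9 weeks in another, and tissue was dissected by hand from saline-perfused animals 5 weeks later. Tamoxifen is described for the CX3CR1-CreERT2 mice. The sources used here do not say how many animals gave a library, so p-values measure only the spread between libraries, which may be technical. As described, CX3 and CTR differ in the vector alone, whereas DAT and CTR differ in Cre line, tamoxifen and vector together, and these cannot be told apart. In bulk tissue, fewer T cells and less RNA per T cell cannot be told apart either.

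Libraries held 29378008 to 35595813 counts on genes in CTR, 32892827 to 36586743 in CX3 and 21592817 to 39475428 in DAT. Values are CPM, the unit edgeR gives for counts scaled to the size of the library after TMM normalization, and 3 counts, the smallest signal taken as countable, equal 0.0779 to 0.151 CPM, covering counting error only. The 10 genes had 112 to 599 counts in each CTR and CX3 library and 23 to 130 in each DAT library. Between libraries of one group, the squared difference in counts over all genes was 1.45 to 1.78 times that of sampling in CTR, 2.50 to 6.45 times in CX3 and 2.16 to 14.8 times in DAT. The libraries CX3 A and DAT B stood apart from the others of their groups. Over the 10 genes alone, it was 0.948 to 2.49 times that of sampling in all 9 pairs, and results for the 10 genes without each library are given where their calls change. Markers of tissue near the nigra also differed between the groups. The choroid plexus markers summed to 34.0 to 36.6 CPM in CTR, 1467 to 1577 CPM in CX3 and 867 to 1038 CPM in DAT. Ttr alone had means of 20.0, 1457 and 853 CPM. Of the 6, 3 were called higher in CX3 than in DAT and 2, Kl and Clic6, lower (27.6% and 31.3% of all genes tested). Of 8 pituitary markers, Prl, Cga, Fshb and Pou1f1 were at 0 counts in at least 1 library. The 8 summed to 61.6 to 64.2 CPM in CTR, 6.12 to 6.47 CPM in CX3 and 18.5 to 23.6 CPM in DAT. Among them, Gh had means of 34.7, 0.217 and 0.103 CPM in CTR, CX3 and DAT, and Pomc 17.9, 2.73 and 17.2 CPM. The markers of meningeal fibroblasts summed to 181 to 182 CPM in CTR, 148 to 156 CPM in CX3 and 311 to 312 CPM in DAT. Of these 6, 4 were called lower in CX3 and 4 higher in DAT (16.5% and 32.0% of all genes tested). Dcn and Lum were called in neither, with Dcn at means of 63.9, 67.4 and 61.4 CPM in CTR, CX3 and DAT. Col1a2 had 46.6, 22.6 and 106 CPM. Of 5 red blood cell markers, all were called lower in CX3 than in CTR, where 16.5% of all genes tested were. They summed to 242 to 267 CPM in CTR, 94.5 to 108 CPM in CX3 and 187 to 266 CPM in DAT. Of 7 tested monocyte and neutrophil markers, 3 were lower and 2 higher in CX3 (16.5% and 14.0% of all genes tested) and 6 were lower in DAT (27.9%). The sum over all 8 was 81.7 to 82.1 CPM in CTR, 51.1 to 52.8 CPM in CX3 and 16.4 to 20.4 CPM in DAT. Ly6g and Retnlg were at 0 counts in at least 1 library. S100a8, S100a9 and Retnlg were under the level of the filter, 0.304 CPM, in at least 1 DAT library. S100a8 was also under it in at least 1 CX3 library. Retnlg, one of the 2 called higher in CX3, had 0.131 to 0.200 CPM in CTR and 0.417 to 0.520 CPM in CX3. It was thus tested through CX3, and calls that rest on levels under the filter are given no weight. The part of these tissues and cells in the results below was not tested.

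The 3 CD3 genes lie together on chromosome 9 (GRCm38, GENCODE M21). Cd3g (44969572 to 44980431, minus strand) and Cd3d (44981786 to 44987339, plus strand) point away from each other across 1354 bases, and Cd3e (44998740 to 45009627, minus strand) follows 11400 bases beyond Cd3d. Their promoters are shown as those of neighbouring genes for chains of 1 complex, with Cd3d and Cd3g starting from opposite sides of a short gap. All 10 genes fell in DAT, so a shared drop is not particular to these neighbours. Each window runs from 250 bases before to 50 bases after the start of the gene in RefSeq, on the gene's own strand of GRCm38.p6. Capitals mark exact matches, on either strand, to 5 short motifs bound by factors active in T cells: the E-box CAGGTG, the ETS motif AGGAAG, the TCF/LEF motif CTTTGA, the RUNX motif TGTGGT and the GATA motif AGATAA.
Cd3d, chr9:44981536-44981835, plus strand: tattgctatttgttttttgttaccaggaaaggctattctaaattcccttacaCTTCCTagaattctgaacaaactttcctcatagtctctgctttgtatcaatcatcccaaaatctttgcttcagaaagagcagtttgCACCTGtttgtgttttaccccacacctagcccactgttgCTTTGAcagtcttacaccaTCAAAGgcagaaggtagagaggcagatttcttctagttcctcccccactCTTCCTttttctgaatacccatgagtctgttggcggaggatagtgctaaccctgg
Cd3g, chr9:44980382-44980681, minus strand: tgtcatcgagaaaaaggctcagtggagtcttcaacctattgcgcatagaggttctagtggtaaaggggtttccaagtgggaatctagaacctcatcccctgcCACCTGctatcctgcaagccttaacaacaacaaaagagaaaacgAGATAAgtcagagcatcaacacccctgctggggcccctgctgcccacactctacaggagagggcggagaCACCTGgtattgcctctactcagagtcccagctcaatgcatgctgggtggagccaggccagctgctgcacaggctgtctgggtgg
Cd3e, chr9:45009562-45009861, minus strand: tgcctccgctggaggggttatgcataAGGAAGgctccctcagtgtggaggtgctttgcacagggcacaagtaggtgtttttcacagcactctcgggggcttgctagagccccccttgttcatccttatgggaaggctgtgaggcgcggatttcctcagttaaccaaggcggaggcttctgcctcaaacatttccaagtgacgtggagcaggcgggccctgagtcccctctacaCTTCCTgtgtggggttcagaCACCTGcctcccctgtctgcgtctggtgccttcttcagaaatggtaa
The Cd3d window held 1 E-box, 2 ETS and 2 TCF/LEF matches, the Cd3g window 2 E-box matches and 1 GATA match, and the Cd3e window 1 E-box and 2 ETS matches. None of these matches overlapped another. RefSeq windows were at hand for 5 of the 10 genes, Lck with 2 windows, and the E-box occurred in 5 of these 6 windows. Of all 32851 mouse promoter windows of this length, 20.2% held the E-box, 35.4% the ETS motif, 16.0% the TCF/LEF motif, 16.8% the RUNX motif and 11.2% the GATA motif. A match describes the letters only.

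Of the CD3 chains, all 3 were lowest in DAT, by 3.33-fold to 5.22-fold against CTR, and CX3 lay close below CTR. Cd3d, which encodes CD3δ, had 5.35, 5.44 and 5.10 CPM in CTR libraries A, B and C, 4.52, 4.79 and 4.53 CPM in CX3, and 1.84, 1.36 and 1.45 CPM in DAT. Every CX3 library was below every CTR library, and every DAT library below both. The log2 difference of Cd3d was −0.20 ± 0.11 (SE) in CX3 against CTR (adjusted p = 0.177, edgeR quasi-likelihood test, n = 3 libraries a group, as for all fitted differences) and −1.73 ± 0.13 in DAT against CTR (adjusted p = 6.16e-08). Cd3e, which encodes CD3ε, had 4.34, 5.19 and 4.70 CPM in CTR, 3.92, 3.29 and 3.91 CPM in CX3, and 1.18, 1.56 and 1.01 CPM in DAT. The groups did not overlap in Cd3e, whose log2 difference was −0.36 ± 0.13 in CX3 against CTR (adjusted p = 0.0537) and −1.95 ± 0.17 in DAT against CTR (adjusted p = 1.76e-07). Cd3e passed the test in CX3 without DAT A or DAT B (adjusted p = 0.0487 and 0.0292). Cd3g, which encodes CD3γ, had 10.6, 9.83 and 11.0 CPM in CTR, 9.53, 8.03 and 8.12 CPM in CX3, and 1.75, 2.31 and 2.06 CPM in DAT. It was the member with the largest difference between DAT and CTR. Cd3g differed by −0.29 ± 0.10 on the log2 scale in CX3 against CTR (adjusted p = 0.0362) and −2.38 ± 0.12 in DAT against CTR (adjusted p = 1.29e-09). The call in CX3 was lost without CTR A, CTR C, CX3 B or CX3 C (adjusted p up to 0.136).

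The receptor's constant regions were also lowest in DAT. Trac, on chromosome 14 (54220521 to 54224206), had 11.7, 10.1 and 10.2 CPM in CTR, 9.40, 9.82 and 8.65 CPM in CX3, and 3.56, 3.82 and 3.03 CPM in DAT. CX3 lay below CTR without overlap, but the log2 difference of Trac, −0.20 ± 0.09, did not pass the test (adjusted p = 0.118). Trac in DAT was lower than in CTR by a log2 difference of −1.62 ± 0.11 (adjusted p = 1.74e-08). Trbc2, on chromosome 6 (41546730 to 41548352), had 8.37, 8.02 and 7.13 CPM in CTR, 7.40, 6.61 and 6.80 CPM in CX3, and 2.22, 3.22 and 3.03 CPM in DAT. CX3 A was above CTR C in Trbc2, so CX3 and CTR overlapped there. For Trbc2, the log2 difference was −0.18 ± 0.11 in CX3 against CTR (adjusted p = 0.256) and −1.52 ± 0.13 in DAT against CTR (adjusted p = 2.64e-07).

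The co-receptors differed among themselves. Cd4, on chromosome 6 (124864692 to 124888221), encodes the MHC class II co-receptor of helper T cells, and had 6.17, 4.83 and 4.90 CPM in CTR, 3.12, 3.23 and 3.57 CPM in CX3, and 2.33, 1.51 and 1.14 CPM in DAT. CX3 lay between CTR and DAT with no overlap on either side. For Cd4, the log2 difference was −0.68 ± 0.17 in CX3 against CTR (adjusted p = 0.00799), which was the largest of the 10 genes in that comparison, and −1.60 ± 0.20 in DAT against CTR (adjusted p = 8.10e-06). Cd8a, on chromosome 6 (71373427 to 71379173), encodes the CD8α chain of cytotoxic T cells, which some dendritic cells also carry, and had 14.8, 16.5 and 14.7 CPM in CTR, 14.8, 14.2 and 15.4 CPM in CX3, and 3.13, 3.77 and 3.51 CPM in DAT. CTR and CX3 were intermixed in Cd8a. In CX3 against CTR the log2 difference of Cd8a was −0.05 ± 0.07 (adjusted p = 0.651), and in DAT against CTR it was −2.16 ± 0.09 (adjusted p = 1.90e-10). Cd8b1, which encodes CD8β, lies 35932 bases from Cd8a (71322788 to 71337494), and had 6.77, 7.22 and 6.90 CPM in CTR, 6.15, 5.14 and 5.05 CPM in CX3, and 1.97, 2.11 and 1.40 CPM in DAT. Unlike in Cd8a, every CX3 library was below every CTR library. For Cd8b1, the log2 difference was −0.35 ± 0.11 in CX3 against CTR (adjusted p = 0.0315) and −1.92 ± 0.14 in DAT against CTR (adjusted p = 4.66e-08). The call of Cd8b1 in CX3 was lost without any 1 of CTR A, B and C or CX3 B and C (adjusted p 0.0664 to 0.118).

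Cd2 and Lck fell in both comparisons with CTR, although Cd2 was not called in CX3 on forward-strand counts (adjusted p = 0.129). Cd2, on chromosome 3 (101275899 to 101287939), had 6.37, 5.82 and 6.57 CPM in CTR, 5.24, 3.87 and 3.62 CPM in CX3, and 1.75, 1.71 and 2.11 CPM in DAT. CX3 A was the highest of the CX3 libraries in Cd2 and still below all CTR libraries. The log2 difference of Cd2 was −0.55 ± 0.13 in CX3 against CTR (adjusted p = 0.00676) and −1.75 ± 0.16 in DAT against CTR (adjusted p = 4.34e-07). Lck, on chromosome 4 (129548344 to 129573641), had 10.8, 10.1 and 10.8 CPM in CTR, 8.33, 8.52 and 7.66 CPM in CX3, and 3.54, 4.53 and 3.64 CPM in DAT. The groups did not overlap in Lck. Its log2 difference was −0.37 ± 0.09 in CX3 against CTR (adjusted p = 0.00641) and −1.46 ± 0.10 in DAT against CTR (adjusted p = 3.08e-08), the smallest drop of the 10 genes in DAT. Lck shares 25 exon bases with the microRNA gene Mir8119 on the same strand.

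**Figure D1:**
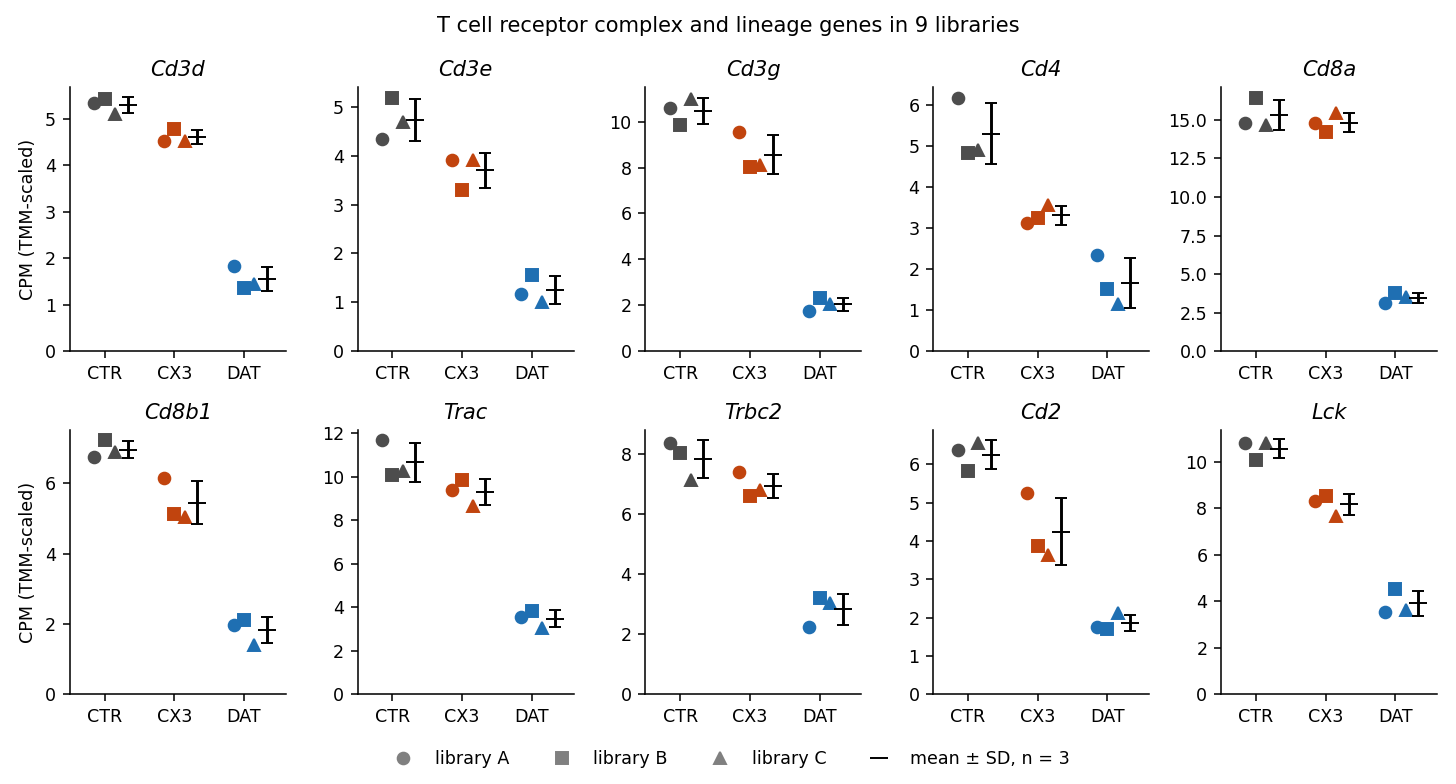
CPM (vertical axis, from 0, a scale for each gene) of the 10 genes in the libraries of CTR, CX3 and DAT, with circles for library A, squares for B and triangles for C, and the mean ± SD of 3 libraries beside them. DAT is lowest for every gene, at 1.01 to 4.53 CPM, and CX3 overlaps CTR for Cd8a and Trbc2.

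As a set, the 10 genes summed to 82.0 to 85.2 CPM in CTR, 67.3 to 72.4 CPM in CX3 and 22.4 to 25.9 CPM in DAT. In CX3 against CTR, 5 of the 10 passed the test, all lower (Cd3g, Cd4, Cd8b1, Cd2 and Lck), where 16.5% of all genes tested were called lower and 30.5% were called in either direction. Their libraries did not overlap for 8 of the 10, with CX3 lower, against 25.4% of all genes tested. The median log2 difference of the 10 was −0.32, against −0.0033 for all genes tested. Without CTR A, CTR C, CX3 B or CX3 C, 3 of the 10 remained called in CX3 against CTR. The 5 called genes were lower in CX3 by 1.22-fold to 1.60-fold.

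In DAT against CTR, all 10 were called lower, where 27.9% of all genes tested were. Groups did not overlap for any of the 10, against 30.6% of all genes tested with DAT lower. The median log2 difference was −1.74, against −0.0038 for all genes tested. Levels were 2.74-fold lower for Lck to 5.22-fold lower for Cd3g. All 10 stayed called without each single library, DAT B among them.

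CX3 against DAT compares the tissue with the same vector acting in the cells of the 2 Cre lines. As described, the groups also differ in tamoxifen, and Cre line, target cell and tamoxifen cannot be told apart. The comparison shares its libraries with those above, so its values are not independent of them. All 10 genes were higher in CX3, by 1.89-fold to 4.33-fold, where 27.6% of all genes tested were called higher. The smallest difference was that of Cd4, with a log2 value of 0.92 ± 0.21 (adjusted p = 0.00149). The largest was that of Cd8a, 2.12 ± 0.09 (adjusted p = 2.37e-10), followed by Cd3g at 2.10 ± 0.13 (adjusted p = 5.32e-09). The next smallest after Cd4 was that of Lck, 1.09 ± 0.11 (adjusted p = 7.11e-07). Groups did not overlap for any of the 10, against 28.8% of all genes tested with DAT lower. The median log2 difference was 1.48, against 0.010 for all genes tested.

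**Figure D2:**
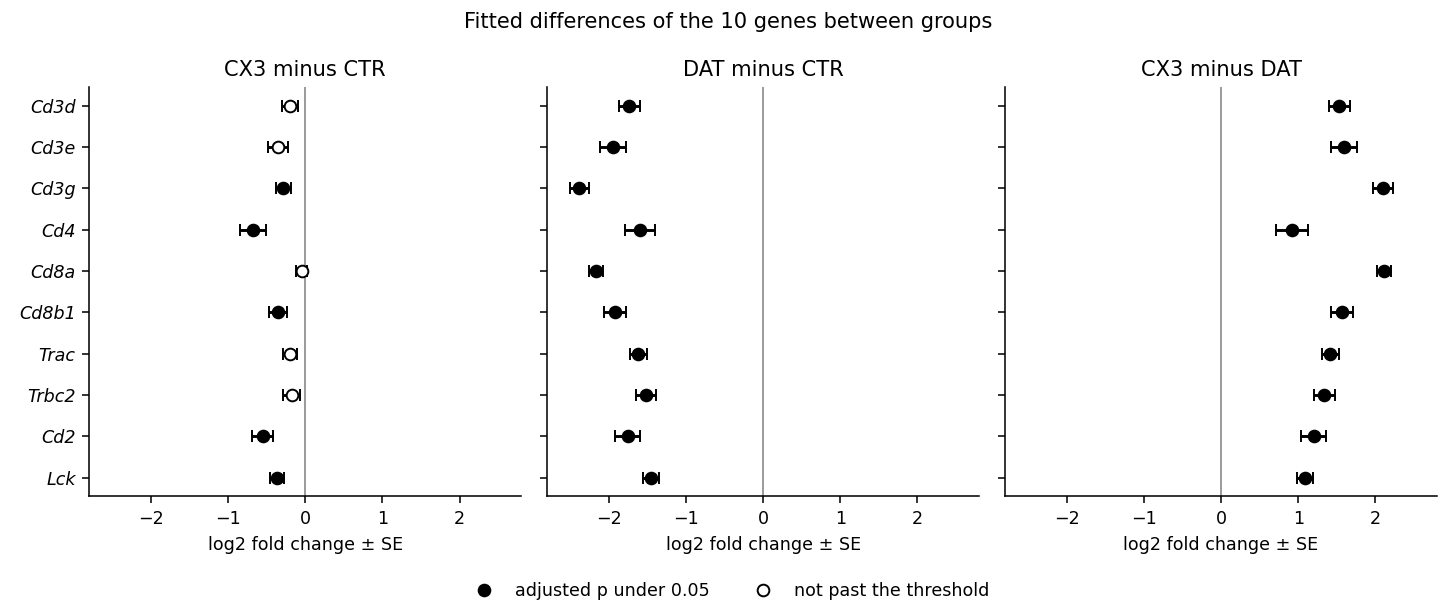
Fitted log2 fold change ± SE (horizontal axis) of the 10 genes in CX3 minus CTR, DAT minus CTR and CX3 minus DAT, from 3 libraries a group, filled where the adjusted p was under 0.05. The 5 filled points of the first panel are Cd3g, Cd4, Cd8b1, Cd2 and Lck, at −0.68 to −0.29, while all points of the other panels are filled.

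Levels can be set against each other only per length, here as CPM per kilobase of merged exons. On this scale the constant regions led in every group, with 11.4 ± 0.960 for Trac and 11.3 ± 0.924 for Trbc2 in CTR (SD, n = 3), which overlapped. Cd8b1 (4.70 ± 0.159) and Cd8a (4.21 ± 0.272) followed in CTR without overlap. Lck (3.61 ± 0.142), Cd2 (3.59 ± 0.221) and Cd3g (3.20 ± 0.176) came next, each overlapping its neighbour, and then Cd3d (2.92 ± 0.0969). Cd4 (1.32 ± 0.187) and Cd3e (1.16 ± 0.105) were lowest and overlapped. The count of both strands leaves out Cd3e reads over bases shared with an antisense gene, as described below. The strand columns of Cd3e summed to 1.39 to 2.09 times that count. The rank of Cd3e and its overlap with Cd4, here and in CX3, thus hold for the count of both strands only. In CX3 the order of the co-receptors turned to Cd8a (4.07 ± 0.170) above Cd8b1 (3.67 ± 0.413), which overlapped, and Cd4 (0.820 ± 0.0581) overlapped Cd3e (0.908 ± 0.0879) at the end. In DAT the constant regions had 4.08 ± 0.765 for Trbc2 and 3.71 ± 0.433 for Trac, and the next 5 genes, from Lck at 1.33 ± 0.186 to Cd3d at 0.853 ± 0.140, each overlapped the next.

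Ratios between 2 of these genes within a library do not depend on how the libraries are scaled. The ratio of Cd8a to Cd4 per length was 2.65, 3.77 and 3.33 in CTR, 5.27, 4.87 and 4.80 in CX3, and 1.49, 2.77 and 3.41 in DAT. The CX3 libraries were above all others, while CTR and DAT overlapped. With the other CD8 chain in its place, the ratio of Cd8b1 to Cd4 was 2.98, 4.06 and 3.83 in CTR, 5.37, 4.32 and 3.85 in CX3, and 2.30, 3.81 and 3.35 in DAT. Here CX3 and CTR overlapped. The ratio of Cd8a to Cd8b1 was 0.891, 0.929 and 0.869 in CTR, 0.981, 1.13 and 1.25 in CX3, and 0.646, 0.728 and 1.02 in DAT. CX3 was above CTR without overlap in this ratio as well. In DAT, libraries A and B lay below all CTR libraries and library C within the range of CX3. Xcr1 and Clec9a, markers of the cross-presenting dendritic cells that carry CD8α in mouse lymphoid organs, were also higher in CX3 than in CTR. Both were lower in DAT than in CTR. Xcr1 had 0.775 ± 0.150 CPM in CTR, 3.16 ± 0.202 CPM in CX3 and 0.220 ± 0.147 CPM in DAT, and Clec9a had 1.11 ± 0.115, 3.31 ± 0.123 and 0.627 ± 0.0664 CPM. Of the 6 markers of these cells, 3 were called higher in CX3 against CTR (Xcr1, Clec9a and Batf3), where 14.0% of all genes tested were. Itgae was called lower, by 0.59 on the log2 scale (adjusted p = 0.000883), where 16.5% were. Flt3 and Cd24a were not called. The summed level of the 6 was 48.6 to 50.3 CPM in CTR, 51.6 to 53.4 CPM in CX3 and 35.9 to 41.4 CPM in DAT. None was at 0, but Xcr1 was under the filter level in at least 1 DAT library. Their part in the Cd8a values was not tested.

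Lck and Cd2 kept more of their level in DAT than Cd3g did. These ratios restate the differences given above, in which Lck fell least and Cd3g most in DAT. The ratio of Lck to Cd3g was 1.14, 1.14 and 1.10 in CTR, 0.976, 1.18 and 1.05 in CX3, and 2.25, 2.18 and 1.97 in DAT. The ratio of Cd2 to Cd3g was 1.13, 1.11 and 1.12 in CTR, 1.03, 0.905 and 0.837 in CX3, and 1.88, 1.39 and 1.92 in DAT. Both ratios were highest in DAT with no overlap. Cd3g also fell further than its neighbour Cd3d, with a ratio of Cd3g to Cd3d of 1.10, 1.00 and 1.19 in CTR, 1.17, 0.930 and 0.996 in CX3, and 0.530, 0.946 and 0.791 in DAT. By contrast, the ratio of Trac to Trbc2 overlapped between all groups, at 1.01 ± 0.0706 in CTR, 0.993 ± 0.0913 in CX3 and 0.936 ± 0.229 in DAT. With 3 libraries against 3, the exact two-sided permutation test cannot give a p below 0.1, and none of the 36 comparisons of 12 such ratios passed a threshold of 0.05 (smallest Benjamini-Hochberg adjusted p = 0.257).

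**Figure D3:**
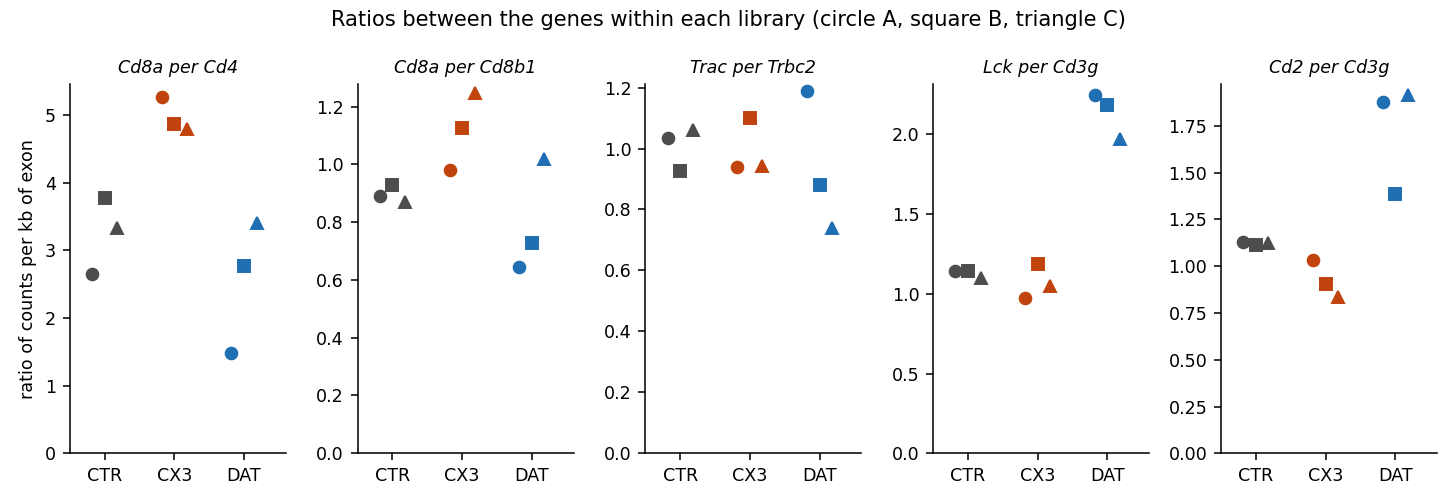
Ratios of counts per kilobase of exon between 2 genes (vertical axis, from 0) in each library of CTR, CX3 and DAT, with circles for library A, squares for B and triangles for C. Cd8a per Cd4 is highest in CX3 at 4.80 to 5.27, Lck per Cd3g is highest in DAT at 1.97 to 2.25, and Trac per Trbc2 overlaps between groups.

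Ptprc, which encodes CD45 of all nucleated blood-derived cells and, at a low level, of microglia, fell beside the 10 genes. It had 63.1 to 65.9 CPM in CTR, 53.0 to 58.0 CPM in CX3 and 15.7 to 20.0 CPM in DAT. The 10 genes together had 1.32, 1.31 and 1.24 counts for each Ptprc count in CTR, 1.37, 1.16 and 1.18 in CX3, and 1.28, 1.65 and 1.12 in DAT. These ratios, computed after the values of the genes were seen, overlapped between all 3 groups.

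Cd3e needs a note on strand. It shares 135 exon bases (3.31% of its own) with Gm48719, an antisense gene on the opposite strand. In the count of both strands together, reads over shared bases are set aside as ambiguous, while each strand's own column keeps them. The strand columns of Cd3e summed to 1.39 to 2.09 times the count of both strands, whereas this ratio was exactly 1 for the other 9 genes in every library. In counts, Cd3e had 132, 189 and 141 reads over both strands in CTR, 104, 137 and 107 on the forward strand and 108, 134 and 103 on the reverse strand. In CX3 these were 151, 114 and 150 over both, 107, 93 and 104 forward and 109, 97 and 116 reverse, and in DAT they were 43, 31 and 23 over both, 30, 23 and 21 forward and 45, 20 and 27 reverse. DAT was lowest in each of the 3 columns, with no overlap with the other groups. Scaled to the total of its own column as CPM, Cd3e had 4.43 to 5.31 in CTR over both strands and 6.40 to 7.06 on the forward strand. Gm48719 had 0 to 14 counts over both strands and 5 to 48 on either strand alone. The log2 difference of Cd3e in CX3 against CTR was −0.39 on the forward strand (adjusted p = 0.0296) and −0.30 on the reverse strand (adjusted p = 0.0864), so its call in that comparison depended on the column. In DAT against CTR the log2 difference of Cd3e was −2.00 and −1.70, called in both.

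The wider pathway was described with 4 lists of 51 genes in all, 50 of them tested. In CX3 against CTR, 15 were lower and 3 higher, where 16.5% of all genes were called lower and 14.0% higher. In DAT against CTR, 35 were lower and 10 higher, where 27.9% and 32.0% of all genes were. In CX3 against DAT, 35 were higher and 8 lower, where 27.6% and 31.3% of all genes were. The median log2 difference was −0.29, −1.62 and 1.20 in these comparisons. All of the 10 receptor complex and lineage genes reached the level of the filter, 0.304 CPM before TMM scaling, in every library. Of the pathway genes, Tcrg-C4, Cd7 and Cd40lg did not reach it in all CX3 libraries. These 3 with Trdc, Themis, Slamf1 and Eomes did not in all DAT libraries. Cd40lg also fell short in at least 1 CTR library. These genes were thus tested through libraries with higher levels. The counts above and below describe the genes that passed.

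Among the other subunits of the receptor, 2 of 5 tested were lower in CX3 and 4 of 5 in DAT, none higher, with medians of −0.47 and −1.99. Trbc1, the alternative constant region of the β chain, had 4.11 ± 0.143 CPM in CTR, 2.76 ± 0.321 CPM in CX3 and 1.00 ± 0.156 CPM in DAT, and fell in CX3 by 0.57 ± 0.13 on the log2 scale (adjusted p = 0.00420). Tcrg-C4, a constant region of the γ chain, had 0.648 ± 0.110 CPM in CTR, 0.201 ± 0.102 CPM in CX3 and 0.118 ± 0.0411 CPM in DAT. It passed the filter through CTR alone, and its CX3 and DAT levels are close to what 3 counts amount to, so its call is given no weight. Cd247, the ζ chain that carries most of the signalling motifs, had a log2 difference of −0.37 ± 0.16 in CX3 (adjusted p = 0.0875) and fell in DAT by 1.67 ± 0.19 (adjusted p = 4.42e-06). Trdc, the constant region of the δ chain, was the one tested subunit that passed in no comparison.

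Of the 20 signalling partners, 7 were lower and 1 higher in CX3 against CTR, with a median of −0.24. The adaptors Lat and Lcp2, which assemble the signalling complex below the receptor, fell by 0.57 ± 0.11 (adjusted p = 0.00174) and 0.30 ± 0.06 (adjusted p = 0.00264). Grap2, an adaptor that joins them, fell by 0.36 ± 0.12 (adjusted p = 0.0389), and the exchange factor Vav1 by 0.32 ± 0.06 (adjusted p = 0.00131). The phosphatases Ptpn22 and Ptprc fell by 0.65 ± 0.10 (adjusted p = 0.000277) and 0.20 ± 0.06 (adjusted p = 0.0244), and Ubash3a, a negative regulator, by 0.72 ± 0.16 (adjusted p = 0.00347). Sh2d2a, an adaptor that binds Lck, went the other way, with 2.93 ± 0.290 CPM in CTR, 4.64 ± 0.690 CPM in CX3 and 0.972 ± 0.234 CPM in DAT. Its log2 difference in CX3 against CTR was 0.67 ± 0.15 (adjusted p = 0.00382). In DAT, 14 of the 20 were lower and 4 higher, with a median of −1.21. Among the 14, Themis did not reach the filter level in every DAT library. The 4 that rose were Fyn, Plcg1, Cblb and Csk, by 0.15 to 0.45, all of which are widely expressed outside T cells.

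All 15 of the other surface receptors of T cells were called lower in DAT, with a median of −1.98. Of these, 12 reached the filter level in every DAT library. Cd7, Cd40lg and Slamf1 did not, and their calls are given no weight. In CX3, 6 of the 15 fell with none higher and a median of −0.34. The largest called drop in CX3 was that of Il7r, the receptor for interleukin-7 that maintains naive and memory T cells, from 12.3 ± 0.430 CPM in CTR to 4.12 ± 0.263 CPM in CX3 and 1.56 ± 0.423 CPM in DAT. Its log2 difference was −1.57 ± 0.11 in CX3 (adjusted p = 1.52e-07) and −2.90 ± 0.14 in DAT (adjusted p = 4.51e-10). The paired scavenger-type receptors Cd6 and Cd5 fell in CX3 by 0.87 ± 0.14 (adjusted p = 0.000447) and 0.53 ± 0.14 (adjusted p = 0.0101). The co-stimulatory receptor Cd28 fell by 0.46 ± 0.15 (adjusted p = 0.0317), Slamf6 by 0.45 ± 0.15 (adjusted p = 0.0386) and Cd48, the ligand of CD2 in mice, by 0.29 ± 0.09 (adjusted p = 0.0190). Il2rb, a chain of the interleukin-2 and interleukin-15 receptors, had a log2 difference of 0.17 in CX3 (adjusted p = 0.199) and fell in DAT by 1.57 (adjusted p = 5.38e-08).

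The transcription factors did not follow the receptor genes. In CX3 against CTR, 2 of 10 rose and none fell, with a median of −0.025, and in DAT 6 rose and 2 fell, with a median of 0.17. Zbtb7b, which directs the helper lineage, rose in CX3 by 0.36 ± 0.05 on the log2 scale (adjusted p = 5.25e-05), and Lef1 by 0.25 ± 0.07 (adjusted p = 0.0133). Zbtb7b had 36.8 ± 0.601, 47.2 ± 1.08 and 41.1 ± 1.21 CPM in CTR, CX3 and DAT, and Lef1 had 12.4 to 12.9 CPM in CTR, 14.4 to 15.5 CPM in CX3 and 13.2 to 15.1 CPM in DAT. Cells of the brain and its vessels also express several factors of this list. The 2 that fell in DAT were Ikzf3, by 1.91 (adjusted p = 1.89e-07), and Runx3, by 1.33 (adjusted p = 7.80e-06).

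**Figure D4:**
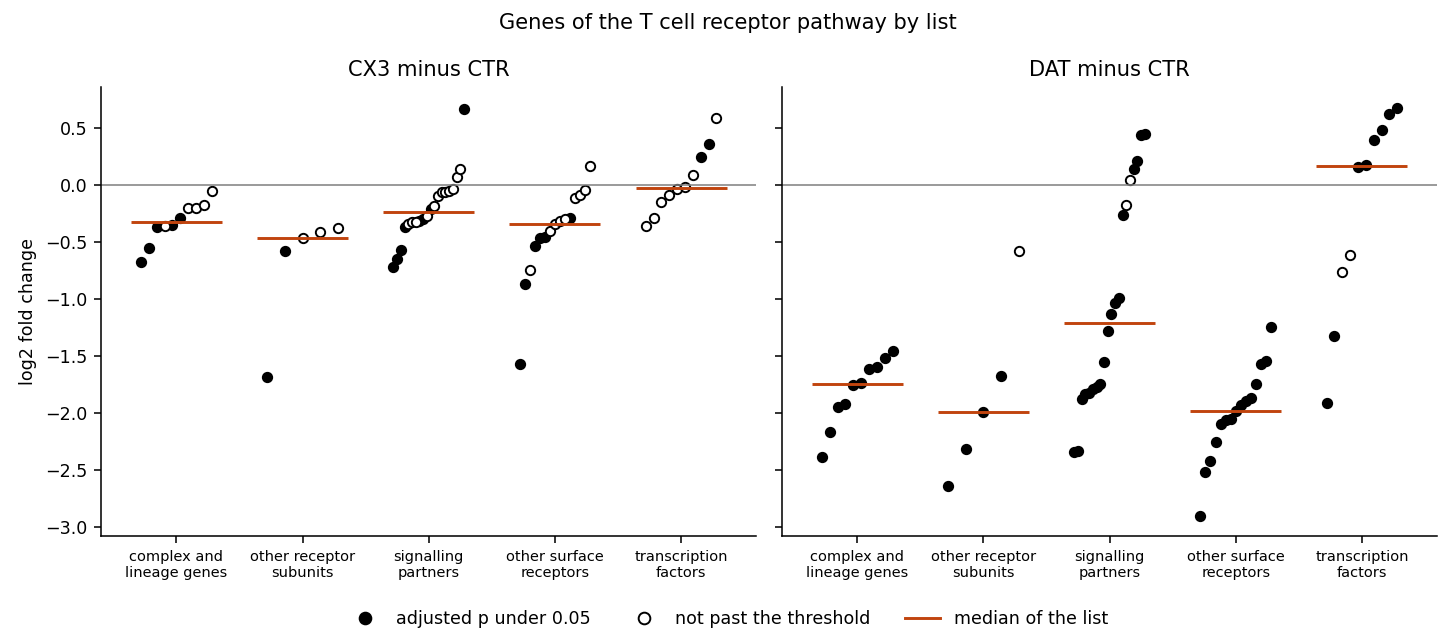
Log2 fold change (vertical axis) of each tested gene in 5 lists, in CX3 minus CTR and in DAT minus CTR, filled where the adjusted p was under 0.05, with the median of each list as a line. The medians in DAT are −1.74, −1.99, −1.21 and −1.98 for the first 4 lists and 0.17 for the transcription factors.

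Markers of other lymphocytes also differed between the groups. Of 8 natural killer cell markers, 3 were tested, and these 3 were called lower in DAT and not called in CX3. Klre1 and Klrd1, at 0.10 to 0.30 and 0.15 to 0.57 CPM in DAT, did not reach the filter level in every DAT library. They were tested through groups with higher levels, so their calls are given no weight. The summed level of the 8 was 9.66 to 10.1 CPM in CTR, 8.09 to 8.59 CPM in CX3 and 1.06 to 2.25 CPM in DAT. The defining receptor gene Ncr1 was at 0.0503 to 0.312 CPM throughout. Klra4, Klra7 and Klra8 were at 0 counts in at least 1 library. Of 7 B cell markers, 5 were called lower in both CX3 and DAT against CTR, where 16.5% and 27.9% of all genes tested were. Among the 5, Ms4a1 and Fcrla were under the filter level in at least 1 DAT library. Pax5, at 8.23 to 9.17 CPM in CTR and 12.6 to 18.2 CPM in DAT, was higher in DAT. The summed level of the 7 was 22.0 to 24.1 CPM in CTR, 12.5 to 13.3 CPM in CX3 and 16.6 to 21.4 CPM in DAT, and that of the 6 without Pax5 was 13.8 to 15.9 CPM in CTR, 4.36 to 4.74 CPM in CX3 and 3.26 to 4.02 CPM in DAT. Of 9 microglia markers, 6 were lower in CX3, and 7 were lower and 1 higher in DAT, where 32.0% of all genes tested were called higher. The part of these cells in the values of Cd2, Lck and the pathway genes, which natural killer or B cells also express in part, was not tested.

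Genes whose 2 differences from CTR lay nearest to the median of the 10 (−0.32 in CX3 and −1.74 in DAT) were sought among 5772 genes called in CX3 against CTR with at least 1 CPM on average. The nearest was Lcp2, at a distance of 0.0237 on the log2 scale, followed by Gimap8, a GTPase gene of lymphocytes, at 0.0641, and Cd72, a surface receptor known from B cells, at 0.0877. Next came A330076H08Rik at 0.0885, Trim12a at 0.0959 and Fcgr3, an Fc receptor of myeloid cells, at 0.113. The last 4 were Clk1, a kinase of splicing factors, at 0.122, Slfn2 at 0.123, E330020D12Rik at 0.135 and Grap2 at 0.137. Clk1 had 208 ± 4.10 CPM in CTR, 173 ± 2.79 CPM in CX3 and 57.7 ± 2.39 CPM in DAT, so this pattern over 9 libraries also occurred in a gene expressed by most cells.

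The variable genes of the receptor were counted per gene, and their rearrangement was not examined. Of 144 annotated, 66, 72 and 58 had a count in CTR, 48, 46 and 51 in CX3, and 35, 21 and 23 in DAT. Their counts summed to 8.60, 8.98 and 7.23 CPM in CTR, 6.96, 6.82 and 6.80 CPM in CX3, and 2.58, 1.86 and 2.33 CPM in DAT. DAT was again lowest, and CX3 lay below CTR without overlap. Single variable genes differed in both directions, and those named here were picked after their values were seen. Trbv12-1 had 4, 5 and 11 counts in CTR, 46, 35 and 41 in CX3, and 2, 0 and 1 in DAT. It made up 14.8% to 17.2% of the variable-gene counts in CX3 and 1.53% to 5.07% in CTR. Trbv17 had 4, 8 and 6 counts in CTR, 21, 14 and 18 in CX3, and 1, 2 and 0 in DAT. Trbv3 went the other way, with 41, 48 and 43 counts in CTR, 18, 15 and 13 in CX3, and 13, 3 and 5 in DAT. It made up 14.7% to 19.8% of the variable-gene counts in CTR and 4.98% to 6.72% in CX3. Trbv12-1 and Trbv17 had few counts outside CX3, so no test is given for these genes.

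Counts of the variable genes were compared between libraries by Pearson's r of their square roots over the 144 genes. It was 0.721 to 0.782 between CTR libraries, 0.831 to 0.862 between CX3 libraries and 0.685 to 0.718 between DAT libraries. Between groups it was 0.588 to 0.696 for CTR and CX3, 0.531 to 0.706 for CTR and DAT, and 0.539 to 0.674 for CX3 and DAT. Pairs within CTR and within CX3 thus lay above all pairs between groups. Pairs within DAT overlapped those of CTR with DAT and those of CTR with CX3. These are descriptions over genes that share the libraries' depth, and most of the genes had few counts.

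**Figure D5:**
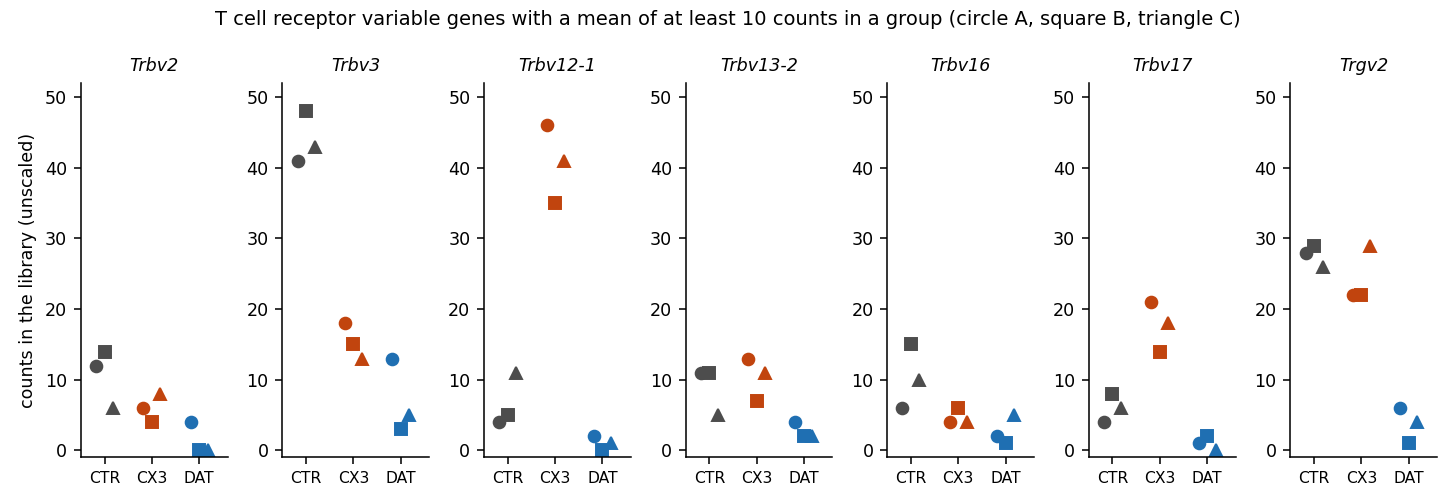
Unscaled counts (vertical axis) of the 7 variable genes with a mean of at least 10 counts in some group, in each library of CTR, CX3 and DAT, with circles for library A, squares for B and triangles for C. Trbv12-1 has 35 to 46 counts in CX3 and at most 11 in CTR, while Trbv3 has 41 to 48 in CTR and at most 18 in CX3.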

How the data were processed

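Poly(A) RNA of nigral tissue was sequenced in 9 libraries with a stranded kit (1 µg of RNA, reads of 76 bases). Per the submitters' processing notes, Trimmomatic, STAR, featureCounts and DESeq2 were used with the build mm10, and versions are not given in the sources used here. The authors deposited raw counts per gene without normalization, over both strands and for each strand, laid out as STAR writes them. The reverse strand held 49.8% to 49.9% of strand-specific counts in every library, so the counts of both strands were used. All 55450 identifiers matched GENCODE M21.

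Counts were filtered (filterByExpr), scaled by TMM and tested with edgeR 4.0.16 (quasi-likelihood test, 1 fit over 9 libraries, R 4.3.3), with Benjamini-Hochberg adjustment over 20892 genes and a threshold of 0.05. Alternatives were DESeq2 1.42.0, other scalings and filters, each strand, the 2 groups alone, a replicate block, glmTreat and leaving out each library, for the 10 genes and the counts of calls. Ratios used Python 3.11.15 with scipy 1.17.1.

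The members and lists were chosen with earlier results of these data known. Besides the 10 genes, those named were, in each pathway list, the 2 that rose most and any that fell in CX3 against CTR, the 10 nearest genes and genes sharing exon bases with a member. Other genes (Cd247, Trdc, Il2rb, Pax5, Fyn, Plcg1, Cblb, Csk, Ikzf3, Runx3, the dendritic and natural killer cell markers and the variable genes) were named after their values were seen. The γ chain genes were matched through RefSeq synonyms, and promoter sequences are from RefSeq (GRCm38.p6).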

Additional observations from a re-analysis of the deposited data

How the results depend on the processing

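In DAT against CTR, all 10 genes stayed called under every alternative run. In CX3 against DAT they did so too, except with a test against a 2-fold change (glmTreat), which called 7 and left out Cd4, Cd2 and Lck. In CX3 against CTR, 3 of the 10 were called with library size alone, with all genes of at least 1 count, with the forward strand and with the reverse strand, 6 with only the 2 groups fitted and 0 with glmTreat. Leaving out 1 library gave 3 to 6 (3 without CTR A, CTR C, CX3 B or CX3 C), and the log2 difference of Cd8a, which was not called, ran from −0.080 (without CTR C) to 0.0061 (without CTR B). The cause was not tested. glmTreat called 244 genes in all in CX3 against CTR, 1448 in DAT against CTR and 1365 in CX3 against DAT. Replicate letters did not pair the libraries, since correlations of same-letter libraries ran from −0.48 to 0.40 over 10878 genes and 3 of 9 correlated best with their own letter. With a replicate block, 5805 genes and 4 of the 10 were called in CX3 against CTR (Cd3g had an adjusted p of 0.0552), 12144 and 10 in DAT against CTR, and 11955 and 10 in CX3 against DAT. A member had as few as 23 counts in a DAT library, where all 10 stayed called, and the calls that changed were those of CX3 against CTR. On the forward strand Cd3e was gained and Cd3g, Cd8b1 and Cd2 were lost there.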
